A study of Mus musculus with 7 samples.

Results

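Lysosomes are acidic organelles in which proteins, glycans, lipids and cholesterol are broken down and recycled. A proton pump in the membrane keeps the interior acidic, soluble proteases, glycosidases and lipid hydrolases do the cutting, and membrane proteins carry products out, shield the membrane and release calcium. The factor TFEB and its relatives switch on many lysosomal genes together through a short palindromic promoter element. In the brain the pathway is known for microglia, the resident phagocytes, and for inherited storage diseases that damage neurons and myelin.

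The 36 genes described here encode lysosomal enzymes and membrane proteins and were taken as a fixed list of symbols out of the 32285 genes in the count matrices. They comprise 6 proteases and protease partners (Ctss, Ctsa, Ctsc, Ctsh, Lgmn, Tpp1), 8 glycosidases (Hexa, Gaa, Gla, Glb1, Man2b1, Manba, Fuca1, Neu1) and 5 sphingolipid hydrolases or activators (Galc, Arsa, Asah1, Smpd1, Psap). They also comprise 4 hydrolases of heparan and dermatan sulfate (Naglu, Sgsh, Ids, Gusb), the thioesterase Ppt1, progranulin (Grn), the cholesterol exporters Npc1 and Npc2, 5 membrane proteins (Lamp1, Lamp2, Scarb2, Cln3, Mcoln1), 3 proton pump subunits (Atp6v0a1, Atp6v1a, Atp6v1h) and Tfeb. All 36 symbols were found and all had UMIs (unique molecular identifiers, each 1 captured RNA molecule).

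Single-nucleus RNA libraries were made from frozen brain tissue labelled subcortex, thalamus and hippocampus of hemizygous 5xFAD mice, which carry transgenes with familial Alzheimer's disease mutations and form amyloid plaques. Every mouse, controls included, was 5xFAD +/- and 6 months old and had received an adeno-associated virus (AAV) behind the eye at 4 months of age. The virus was labelled ANGPT2 AAV in 4 mice (a male and a female in each of 2 batches) and control AAV in 3 mice (a male and a female in batch 1 and a male in batch 2), so no mouse without the amyloid transgenes entered any comparison. ANGPT2 encodes angiopoietin-2, which is secreted and binds TIE2 on endothelium, and the promoter of the vector and the cells it reaches are not given in the sources used here. Values per library run in the order male of batch 1, female of batch 1, male of batch 2, female of batch 2.

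The libraries held 25466033 to 100529717 UMIs, with the 3 libraries of batch 2 below the 4 of batch 1. Of 58286 barcodes, 54230 were kept, and they fell into 43 clusters. Marker genes assigned 42992 nuclei to 13 classes, with dentate granule and thalamic neurons counted among the excitatory neurons, and 11 clusters with 11238 nuclei stayed unnamed and entered the whole-library sums only. The class names below stand for nuclei that resemble those types, and 10 of 11 microglial markers, but 6 of 12 excitatory markers, were highest in their own class. The lysosomal genes were left out of the clustering. Microglia numbered 221 to 600 nuclei per library, whereas striatal projection neurons numbered 6 to 1628. The microglial class included a sub-cluster of 31 nuclei led by the border macrophage genes F13a1 and Mrc1. It also included a sub-cluster of 7 nuclei led by Sox2ot and Adarb2. Of 56197 distinct barcodes, 1934 occurred in more than 1 library. The mouse Angpt2 gene had 4.80, 3.73, 2.29 and 2.81 CPM (UMIs scaled to a common total of 1000000) in ANGPT2 libraries, against 3.83, 4.26 and 3.87 CPM in control libraries. The groups overlapped, and the labels do not say which species' sequence the vector carries, so this gene does not check the vector.

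Promoters of lysosomal genes are known for the palindrome TCACGTGA, the core of the element that TFEB binds, which contains the shorter E-box CACGTG. In RefSeq promoters on build GRCm38.p6 (250 bases before to 50 after the start site), found for 32 of the 36 members (all but Asah1, Npc1, Ctsh and Atp6v1h), TCACGTGA was present in 5, which is 15.6%, against 1.12% of all 27025 promoters in the table. CACGTG was present in 12 of 32, or 37.5%, against 8.09% of all. Both motifs read the same on either strand, every TCACGTGA also counts as a CACGTG, and a match is a string of letters and not a measured binding site. Of the 33 members tested, 30 were called higher in microglia below, and 4 of the 5 with TCACGTGA were among them. The fifth, Gla, was not tested there, and a link of the motif to the class was not tested. The 160 bases before the start site are shown for these 4, with the match in capitals. They lie at chr2:164833613-164833772 (plus strand) for Ctsa, chr7:126583237-126583396 (minus strand) for Cln3, chr8:3500359-3500518 (plus strand) for Mcoln1 and chr16:44139260-44139419 (minus strand) for Atp6v1a.
Ctsa: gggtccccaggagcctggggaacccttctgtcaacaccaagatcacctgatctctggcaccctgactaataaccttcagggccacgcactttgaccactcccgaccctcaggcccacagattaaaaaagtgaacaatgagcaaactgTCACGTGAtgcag
Cln3: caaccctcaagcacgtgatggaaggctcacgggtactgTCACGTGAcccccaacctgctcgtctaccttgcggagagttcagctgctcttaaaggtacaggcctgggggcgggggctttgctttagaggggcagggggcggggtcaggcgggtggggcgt
Mcoln1: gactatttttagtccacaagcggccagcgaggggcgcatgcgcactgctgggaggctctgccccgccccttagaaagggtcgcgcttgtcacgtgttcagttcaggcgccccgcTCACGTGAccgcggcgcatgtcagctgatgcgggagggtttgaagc
Atp6v1a: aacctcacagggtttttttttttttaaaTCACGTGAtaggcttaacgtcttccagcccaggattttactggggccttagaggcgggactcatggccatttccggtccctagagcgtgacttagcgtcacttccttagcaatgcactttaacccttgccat
The first match began 13 bases before the start site in Ctsa, 46 in Mcoln1, 122 in Cln3 and 132 in Atp6v1a. The start site is that of the RefSeq promoter entry. In Ctsa, Cln3 and Atp6v1a the bases shown lie inside the annotated span of the gene, downstream of its outermost start. The annotated span of Mcoln1 begins at chr8:3500457, within the bases shown, and its match also lies downstream of that position. The fifth promoter was that of Gla, the alpha-galactosidase of glycolipid breakdown, whose 2 matches lay farther from the start than the bases shown.

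By mean CPM, microglia ranked first among the 13 classes for 22 of the 36 members, and by mean UMIs per nucleus they ranked first for 9. The ranks per nucleus also depend on the depth of the libraries each class had, and some classes lacked libraries. UMI counts of each class were added up within a library, and each class was set against the equally weighted mean of the other 12 with edgeR's quasi-likelihood test, with library as a block and Benjamini-Hochberg adjustment over 12655 genes. In microglia 30 of the 33 members tested were higher at an adjusted p under 0.05 and 0 were lower, where 32.8% of all genes were higher and 25.2% lower. Their median log2 difference was 1.14, against 0.04 over all genes. Gla, Arsa and Sgsh did not pass the low-count filter. Gaa, Smpd1 and Atp6v1h were the members tested but not called. These p-values come from a joint fit to the sums of all 13 classes in all libraries. They set a difference against the spread left over all of these sums, many of which share a mouse. They do not measure how steadily a difference recurred over mice. Because the classes were made from the same nuclei, the p-values are also not an independent test of the classes.

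**Figure D1:**
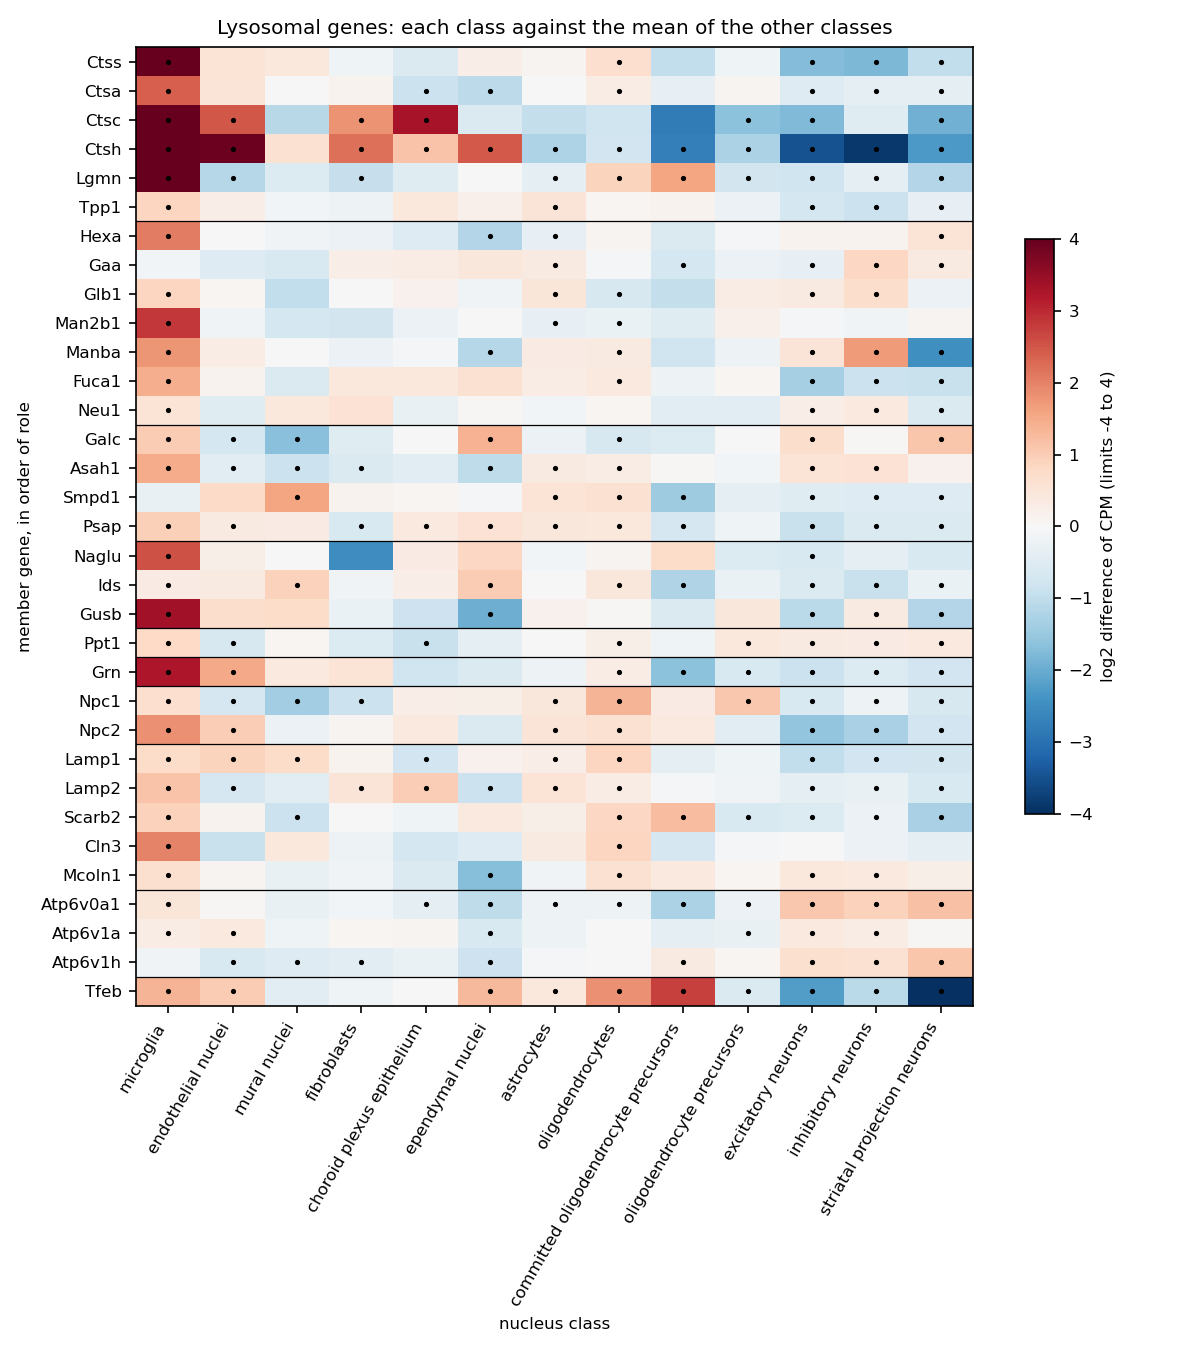
Log2 difference of CPM of the 33 lysosomal genes tested (rows, grouped by role) in each of 13 nucleus classes (columns) against the mean of the other classes, on a colour scale limited to -4 to 4; a dot marks an adjusted p under 0.05. Microglia show 30 dots, all on the red side; on the scale of UMIs per nucleus 18 members were higher and 6 lower in microglia.

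The largest differences were those of proteases. Ctsh (cathepsin H) had 241, 211, 237 and 140 CPM in microglia of ANGPT2 mice, against 253, 234 and 243 CPM in microglia of control mice, and its log2 difference from the other classes was 5.29 (SE 0.12). Ctss (cathepsin S, which trims the invariant chain during antigen presentation) had 483, 566, 619 and 622 CPM in ANGPT2 microglia, against 552, 581 and 537 CPM in control microglia, with a class difference of 4.45 (SE 0.09). The lowest microglial library of Ctss lay far above its next class, mural nuclei, at 58.7 ± 32.9 CPM (SD, n = 7). Ctsc (cathepsin C, which activates serine proteases of granules) had 122, 132, 138 and 96.0 CPM in ANGPT2 microglia, against 156, 185 and 118 CPM in control microglia, with a class difference of 4.47 (SE 0.18). Lgmn (legumain, which cuts after asparagine and processes cathepsins) had 1001, 725, 1058 and 807 CPM in ANGPT2 microglia, against 824, 735 and 805 CPM in control microglia, with a class difference of 4.06 (SE 0.09). In all 4 proteases the 2 treatment groups overlapped within microglia, while every microglial library was above the mean of every other class. Gusb (beta-glucuronidase) had 117, 127, 141 and 133 CPM in ANGPT2 microglia, against 133, 122 and 99.5 CPM in control microglia, and differed from the other classes by 3.35 (SE 0.13). Adjusted p-values of these 5 genes by edgeR's quasi-likelihood test ran from 2.7e-66 to 3.3e-43. Tpp1 and Ctsa, the other 2 of the group, were also called, so that all 6 proteases or partners were higher.

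Other roles followed with smaller differences. Of the glycosidases 6 of 7 tested were higher in microglia, with a median log2 difference of 1.45; Hexa, which cuts GM2 ganglioside, averaged 155 ± 24.3 CPM there and 53.2 ± 36.5 CPM in endothelial nuclei, its next class (SD, n = 7 each). All 3 heparan sulfate hydrolases tested, both cholesterol exporters, all 5 membrane proteins, Ppt1, Grn and Tfeb were higher, as were 3 of 4 sphingolipid genes. Grn, the precursor of lysosomal granulins, averaged 176 ± 27.2 CPM in microglia. The proton pump was the group closest to the other classes: Atp6v0a1 and Atp6v1a were called with log2 differences of 0.48 and 0.31, and Atp6v1h was at -0.15. By mean CPM, mural nuclei ranked first for 4 members and committed oligodendrocyte precursors for 3. By mean UMIs per nucleus, inhibitory neurons ranked first for 12, choroid plexus epithelium, which had 5 libraries, for 7 and excitatory neurons for 5. Choroid plexus epithelium lacked the male control and male ANGPT2 libraries of batch 2, which held the fewest UMIs. Striatal projection neurons lacked the male control library of batch 1, which held the most. Means per nucleus were not adjusted for depth, so for these classes the ranks per nucleus cannot separate class from library depth. The summed level of the 36 members was 5468 ± 216 CPM in microglia (SD, n = 7), against class means of 1181 to 2400 CPM elsewhere. Per nucleus the same sum was 10.4 ± 4.83 UMIs in microglia, below 15.2 ± 7.60 UMIs in inhibitory neurons and 14.0 ± 7.20 UMIs in excitatory neurons (SD, n = 7 each), with libraries of unequal depth behind each SD.

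Microglial nuclei hold fewer UMIs than neuronal nuclei, so the scale bears on these counts. With UMIs per nucleus in place of CPM, the median of all genes in microglia shifted to -0.67 and 60.3% of genes were lower. On that scale 18 members were still higher in microglia and 6 were lower, with a median log2 difference of 0.41 and 13.6% of all genes higher. The 5 leading members stayed called, at log2 differences of 4.55 for Ctsh, 3.75 for Ctsc, 3.73 for Ctss, 3.34 for Lgmn and 2.65 for Gusb. Among 68 other lysosomal genes tested, from a list of 72, 51 were higher and 6 lower in microglia on the CPM scale.

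**Figure D2:**
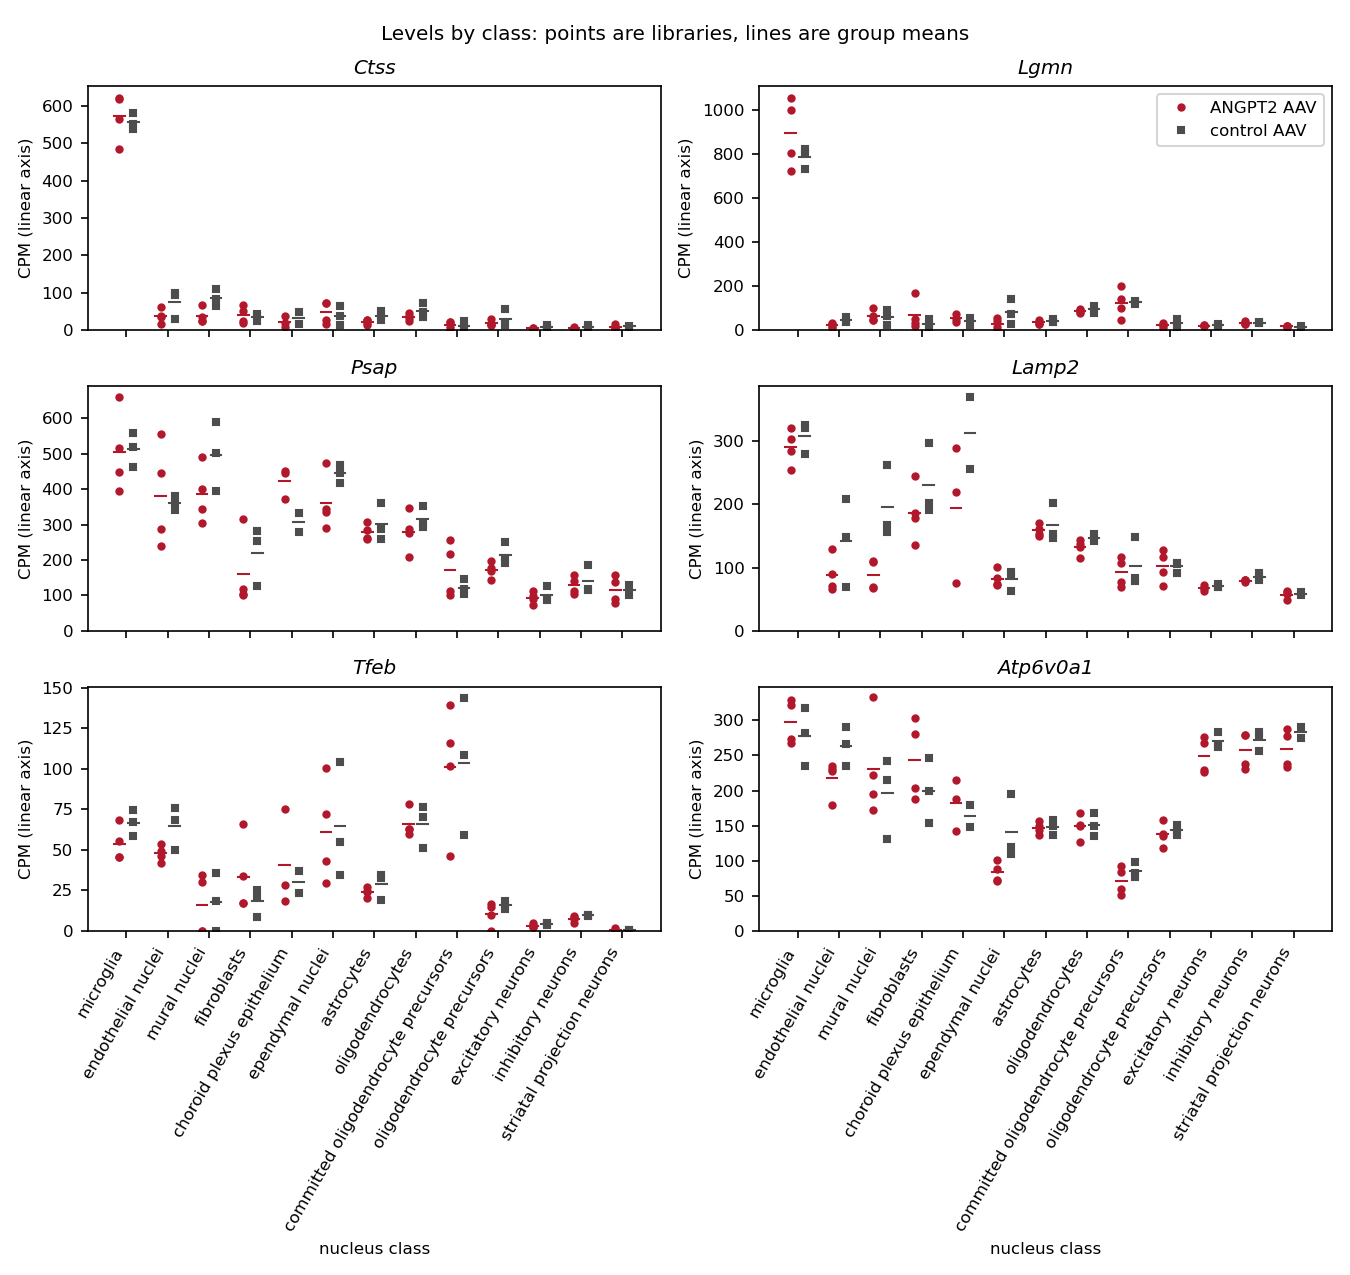
CPM on a linear axis of 6 lysosomal genes in each nucleus class; each point is 1 library (ANGPT2 AAV as circles on the left, control AAV as squares on the right of each class) and each short line is a group mean. Ctss and Lgmn stand far above all other classes in microglia, Tfeb is highest in committed oligodendrocyte precursors and near 0 in neurons, and Atp6v0a1 averages 259 CPM in excitatory neurons and 289 CPM in microglia.

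Among the proton pump subunits, Atp6v0a1 and Atp6v1h were higher in all 3 neuronal classes, and Atp6v1a was higher in excitatory and inhibitory neurons, by 0.39 and 0.31, but was not called in striatal projection neurons at 0.05. Atp6v0a1, a membrane-sector subunit of the proton pump known for a role at synapses, had 226, 265 and 284 CPM as lowest, median and highest of 7 libraries in excitatory neurons, 231, 279 and 283 CPM in inhibitory neurons, and 233, 277 and 290 CPM in striatal projection neurons (6 libraries). Its log2 differences from the other classes were 1.07 (SE 0.06), 0.92 (SE 0.06) and 1.16 (SE 0.07) in the 3 neuronal classes. Atp6v1h, a regulatory subunit of the pump's catalytic sector, was higher in the same 3 classes by 0.65, 0.60 and 1.10. Both genes were called in all 3 classes also per nucleus, where the medians of all genes shifted to 1.42, 1.39 and 0.88 and the 2 genes stood at 1.96 to 2.39. Across the 13 class means Atp6v1h ran against several other members, with a Spearman rho of -0.72 to Smpd1, whereas the median rho over all 630 member pairs was 0.39. These correlations share libraries and depth and are a description only.

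In the 3 neuronal classes the median member lay below the median of all genes on both scales. Their median log2 difference on the CPM scale was -0.52 in excitatory, -0.25 in inhibitory and -0.57 in striatal projection neurons, against 0.09, 0.04 and 0.02 over all genes. Per nucleus it was 0.83, 1.11 and 0.29, against 1.42, 1.39 and 0.88. On the CPM scale 10 members were higher and 20 lower in excitatory neurons (41.8% and 27.8% of all genes), 11 higher and 16 lower in inhibitory neurons (37.2% and 27.1%), and 6 higher and 20 lower in striatal projection neurons (34.9% and 26.6%). Per nucleus 26 were higher and 3 lower in excitatory neurons (83.7% and 5.12% of all genes), 29 higher and 2 lower in inhibitory neurons (80.9% and 4.73%), and 17 higher and 5 lower in striatal projection neurons (69.3% and 8.61%). Members that were lower on both scales included Tfeb, at -2.23 in excitatory and -4.19 in striatal projection neurons on the CPM scale and at -0.89 and -3.37 per nucleus. Ctsh was likewise low on both scales, at -3.48 in excitatory and -3.87 in inhibitory neurons on the CPM scale and at -2.18 and -2.54 per nucleus.

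Manba, the beta-mannosidase of glycoprotein breakdown, separated the neuronal classes. It had 57.8, 67.4 and 79.7 CPM as lowest, median and highest library in inhibitory neurons and 1.69, 3.31 and 4.90 CPM in striatal projection neurons, with no overlap between them. Its log2 differences from the other classes were 1.70 (SE 0.11) and -2.45 (SE 0.20), and 3.07 and -1.62 per nucleus. Gaa, the alpha-glucosidase that degrades glycogen, was higher in inhibitory neurons by 0.83 (SE 0.08). Galc, which degrades the myelin lipid galactosylceramide, was higher in striatal projection neurons by 1.12 (SE 0.11) and in excitatory neurons by 0.70 (SE 0.10).

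**Figure D3:**
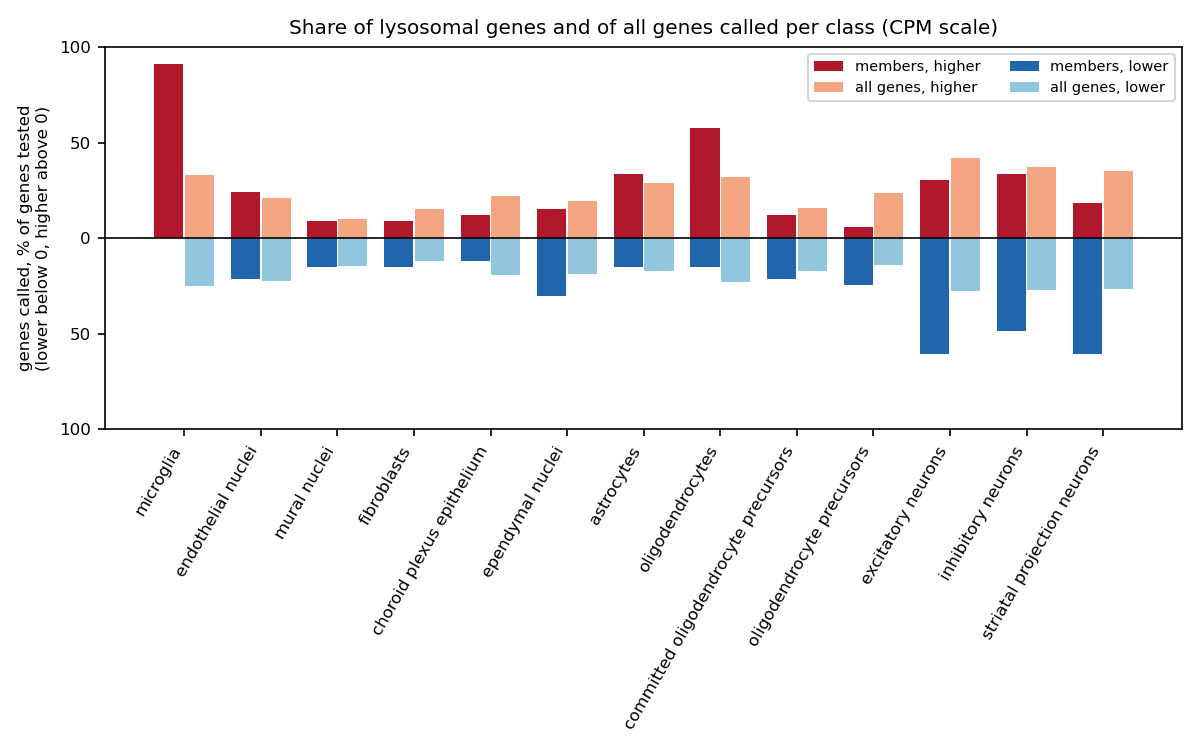
Share of the 33 lysosomal genes tested (dark bars) and of all 12655 genes (pale bars) that were called higher (above 0) or lower (below 0) in each class against the mean of the others, on the CPM scale. Microglia reach 90.9% higher, and the 3 neuronal classes have more members lower than higher. On the scale of UMIs per nucleus 26, 29 and 17 members were higher in excitatory, inhibitory and striatal projection neurons and 3, 2 and 5 lower, where 83.7%, 80.9% and 69.3% of all genes were higher.

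In the oligodendrocyte lineage Tfeb was higher in oligodendrocytes and committed precursors and lower in oligodendrocyte precursors, and the cholesterol exporter Npc1 was higher in oligodendrocytes and oligodendrocyte precursors. Tfeb had 51.5, 62.7 and 78.5 CPM as lowest, median and highest library in oligodendrocytes and 46.4, 109 and 144 CPM in committed oligodendrocyte precursors, while oligodendrocyte precursors lay below the mean of the other classes at a log2 difference of -0.58. The differences of the first 2 classes were 1.82 (SE 0.10) and 2.73 (SE 0.19), and 0.79 and 3.37 per nucleus. The committed precursors rested on 12 to 31 nuclei per library. Npc1 was higher in oligodendrocytes by 1.35 (SE 0.07) and in oligodendrocyte precursors by 1.09 (SE 0.10), and by 0.31 and 1.05 per nucleus; in committed precursors it was not called, at 0.31. In oligodendrocytes 19 members were higher and 5 lower (31.8% and 22.8% of all genes), all 5 membrane proteins among the higher ones, but per nucleus 2 were higher and 27 lower (7.6% and 75.4%). Lamp1, Cln3 and Lgmn, at 0.85, 0.85 and 0.90 on the CPM scale, stood at -0.20, -0.18 and -0.13 per nucleus. Galc was lower in oligodendrocytes on both scales, at -0.66 (SE 0.13) and -1.70 per nucleus. Committed oligodendrocyte precursors had 4 members higher and 7 lower (15.9% and 17% of all genes), and 10 and 1 per nucleus (35% and 5.7%); Lgmn and Scarb2, the receptor that carries glucocerebrosidase to lysosomes, were among the higher ones at 1.58 and 1.24.

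Astrocytes, lining cells and vascular cells had few strong members. Astrocytes had 11 higher and 5 lower (28.9% and 17.2% of all genes), with Lamp2, which serves chaperone-mediated autophagy, leading at 0.56 (SE 0.08), but 0 higher and 15 lower per nucleus (16.9% and 44.5%). The per-nucleus median of all genes was -0.99 in oligodendrocytes, -0.35 in astrocytes, -0.87 in endothelial, -0.45 in ependymal and -1.36 in mural nuclei, -0.47 in fibroblasts and 0.45 in choroid plexus epithelium. Without the male control library of batch 1 the astrocyte counts were 10 and 0. In choroid plexus epithelium Ctsc was higher by 3.29 (SE 0.37) and Lamp2 by 0.98 (SE 0.13), among 4 members higher and 4 lower (22.3% and 19.3% of all genes) and 11 and 0 per nucleus (38.3% and 9.25%). Endothelial nuclei had 8 higher and 7 lower (21.1% and 22.2% of all genes), with Ctsh at 3.93 (SE 0.26) and Ctsc at 2.48 (SE 0.45) first, and 3 and 16 per nucleus (12% and 52.1%). The 11 microglial markers summed to 639 to 1632 CPM in endothelial nuclei, against 6523 to 8544 CPM in microglia, none of them was at 0, and their part in the endothelial cathepsins was not tested. Ependymal nuclei had 5 higher and 10 lower (19.2% and 18.7% of all genes), and 5 and 12 per nucleus (16.2% and 30.8%). Ctsh was higher there by 2.45 and Galc by 1.38 (SE 0.23), and Gusb and Mcoln1 were lower at -1.95 and -1.71. Per nucleus these 4 stood at 2.15, 1.10, -2.22 and -1.98. Fibroblasts and mural nuclei each had 3 higher and 5 lower, where 15.2% and 11.7% of all genes were called in fibroblasts and 10% and 14.8% in mural nuclei. Per nucleus the 2 classes had 2 and 10 (10.8% and 30.5% of all genes) and 0 and 23 (4.05% and 65.5%). Fibroblasts had 3 higher and 2 lower without the male control library of batch 1, and the same counts without the male ANGPT2 library of batch 1. Smpd1, the acid sphingomyelinase, was higher in mural nuclei by 1.58 (SE 0.37) on 24 UMIs and was not called per nucleus. Oligodendrocyte precursors had 2 higher and 8 lower (23.6% and 14.2% of all genes), the same numbers per nucleus (20.6% and 15%), and 2 and 15 with RLE size factors. Without the male control library of batch 1 they had 2 and 4, and without the female ANGPT2 library of batch 1 they had 2 and 3. For RLE size factors and left-out libraries the share of all genes called is not given here. Those counts can therefore not be read as particular to the members in any class.

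Within microglia a sub-cluster with disease-associated markers carried more of some lysosomal genes and less of others. It held 1025 nuclei, 65 to 270 per library, was led by Ctnna3, Mamdc2, Igf1, Dkk2 and Myo1e, and expressed 10 of the disease-associated markers in at least 10% of its nuclei. It was set against the 2 other large sub-clusters together, of which the first (793 nuclei, 11 homeostatic markers) came mostly from batch 1 and the second (780 nuclei) mostly from batch 2, with the striatal neuropeptide gene Penk leading the second. The sub-clusters were chosen after the data were seen, and the following values are a description without a test.

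**Figure D4:**
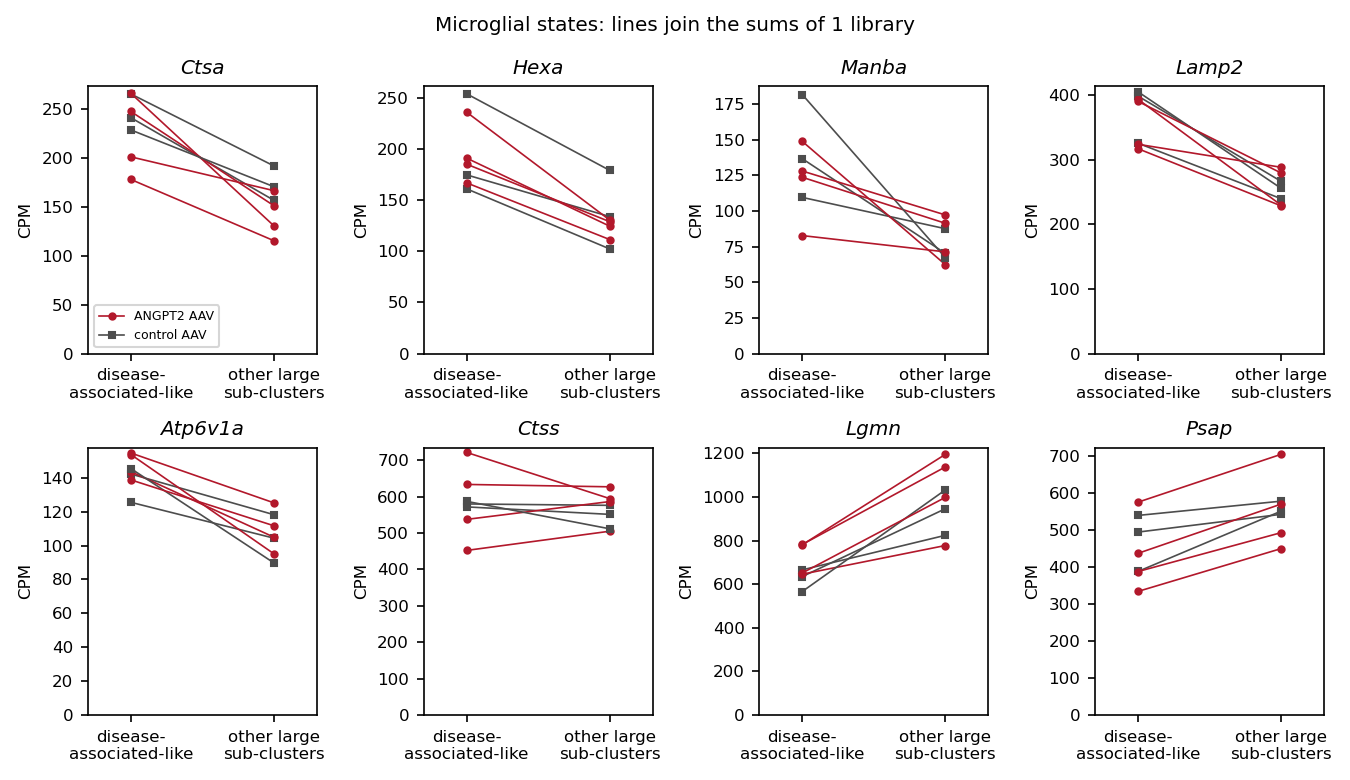
CPM of 8 lysosomal genes in the disease-associated-like sub-cluster (left) and in the 2 other large microglial sub-clusters (right), with a line joining the 2 sums of each library (circles ANGPT2 AAV, squares control AAV). In all 7 libraries Ctsa, Hexa, Manba, Lamp2 and Atp6v1a are higher on the left and Lgmn and Psap lower, and Ctss has no common direction.

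Of the 32 members with at least 100 UMIs, 7 were higher in the disease-associated-like nuclei in all 7 libraries, which is 21.9%, against 7.13% of 7835 genes. These were Ctsa, Hexa, Manba, Galc, Lamp2, Atp6v0a1 and Atp6v1a. Ctsa, the carboxypeptidase that protects beta-galactosidase and sialidase, averaged 232 ± 32.9 CPM there and 155 ± 25.5 CPM in the other sub-clusters (SD, n = 7 each). Lamp2 averaged 365 ± 40.3 CPM there and 255 ± 23.8 CPM in the others, and the libraries of the 2 sets did not overlap. Hexa averaged 196 ± 35.7 CPM there and 130 ± 24.4 CPM in the others, with overlap between libraries. Manba, at a ratio of means of 1.66, and Galc, at 1.62, had the largest ratios of the 7.

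Lgmn and Psap were the 2 members lower in all 7 libraries, or 6.25%, against 7.15% of all genes. Lgmn had 782, 646, 781 and 651 CPM in disease-associated-like nuclei of ANGPT2 mice and 635, 666 and 566 CPM in those of control mice, against 1137, 777, 1195 and 998 CPM in the other sub-clusters of ANGPT2 mice and 946, 824 and 1032 CPM in those of control mice. Its ratio of means was 0.68, and only the other sub-clusters of the female ANGPT2 mouse of batch 1 came down into the range of the disease-associated-like nuclei. Psap, whose product is cut into the saposins that present lipids to hydrolases, averaged 451 ± 88.6 CPM in disease-associated-like nuclei and 556 ± 80.0 CPM in the others. Ctss, at 583 ± 82.7 and 564 ± 44.6 CPM, was higher in 5 libraries and lower in 2. Summed over all 36 members, disease-associated-like nuclei had 5612 ± 293 CPM and the others 5422 ± 200 CPM.

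Among the other lysosomal genes 10 of 57 with at least 100 UMIs were higher in all 7 libraries, which is 17.5%. These were the cathepsins Ctsb, Ctsd, Ctsl and Ctsz, the membrane proteins Cd63 and Cd68, the chloride exchanger Clcn7, the pump subunit Atp6v1c1, Gnptab, which makes the mannose-6-phosphate tag, and Mitf, a relative of Tfeb. Ctsb averaged 507 ± 92.5 CPM in disease-associated-like nuclei and 254 ± 48.0 CPM in the others, and Ctsd 844 ± 140 and 435 ± 63.7 CPM, with no overlap between libraries for either gene. Tfeb itself averaged 51.0 ± 11.7 CPM in disease-associated-like nuclei and 65.3 ± 11.0 CPM in the others, lower in 6 of 7 libraries. In the other direction 4 of the 57 were lower in all 7 libraries, or 7.02%, namely Ctsf, Slc36a1, Sort1 and Atp6v0e2. Ctsf, a further cathepsin, averaged 33.7 ± 13.3 CPM in disease-associated-like nuclei and 60.2 ± 9.12 CPM in the others, and Sort1, the sorting receptor sortilin, 199 ± 37.0 and 320 ± 44.5 CPM. The ratio of means was 0.53 for Slc36a1 and 0.71 for Atp6v0e2. Atp6v0d2, a pump subunit known from osteoclasts and macrophages and chosen here after its values were seen, had 56 UMIs in disease-associated-like nuclei and 1 UMI in the others.

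ANGPT2 AAV was compared with control AAV in whole libraries and in each class to ask whether the level of these genes differed. No member was called in any of the 14 comparisons by edgeR's quasi-likelihood test with Benjamini-Hochberg adjustment over all genes. The background was equally low, with 0 genes (0%) called in 13 comparisons and 2 genes (0.0664%) in ependymal nuclei. At an unadjusted p under 0.05, 1 member passed in each of 6 comparisons, namely whole libraries (2.79% of all genes passed), astrocytes (3.32%), choroid plexus epithelium (4.85%), ependymal nuclei (4.15%), excitatory neurons (4.51%) and oligodendrocyte precursors (5.08%). In the other 8 comparisons 0 members passed, where the share of all genes was 3.89% in microglia, 3.89% in inhibitory neurons, 2.5% in oligodendrocytes, 1.95% in striatal projection neurons, 3.42% in committed oligodendrocyte precursors, 2.55% in endothelial nuclei, 2.59% in mural nuclei and 4.38% in fibroblasts. DESeq2 also called 0 members in all 14, and of the other lysosomal genes 0 were called by edgeR in any of them.

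In microglia 32 members were tested, and 14 were above and 18 below 0, with a median log2 difference of -0.03 (0.01 over all genes) and a range of -0.33 to 0.27. The 95% interval of every one of the 32 lay within 1 log2 unit of 0, so a change by more than a factor of 2 was outside all of them, each taken alone. Ctsc had a log2 difference of -0.33 (95% interval -0.72 to 0.06) and Lgmn one of 0.23 (-0.14 to 0.60), and the libraries of both overlapped between the groups. Ctsa was lower in all 4 ANGPT2 libraries, at 180, 180, 183 and 143 CPM against 221, 193 and 192 CPM in control libraries, and its log2 difference was -0.21 (-0.53 to 0.12). Ctsh was at -0.21 and Npc2 at 0.23, and the adjusted p was 0.999 for these 5 members by edgeR's quasi-likelihood test. Among the other lysosomal genes Arsb, the sulfatase of dermatan sulfate, had the smallest unadjusted p in microglia, with a log2 difference of 0.71 (SE 0.19) and an adjusted p of 0.923 by the same edgeR test, and Atp6v1e1 followed at 0.47 (SE 0.23).

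**Figure D5:**
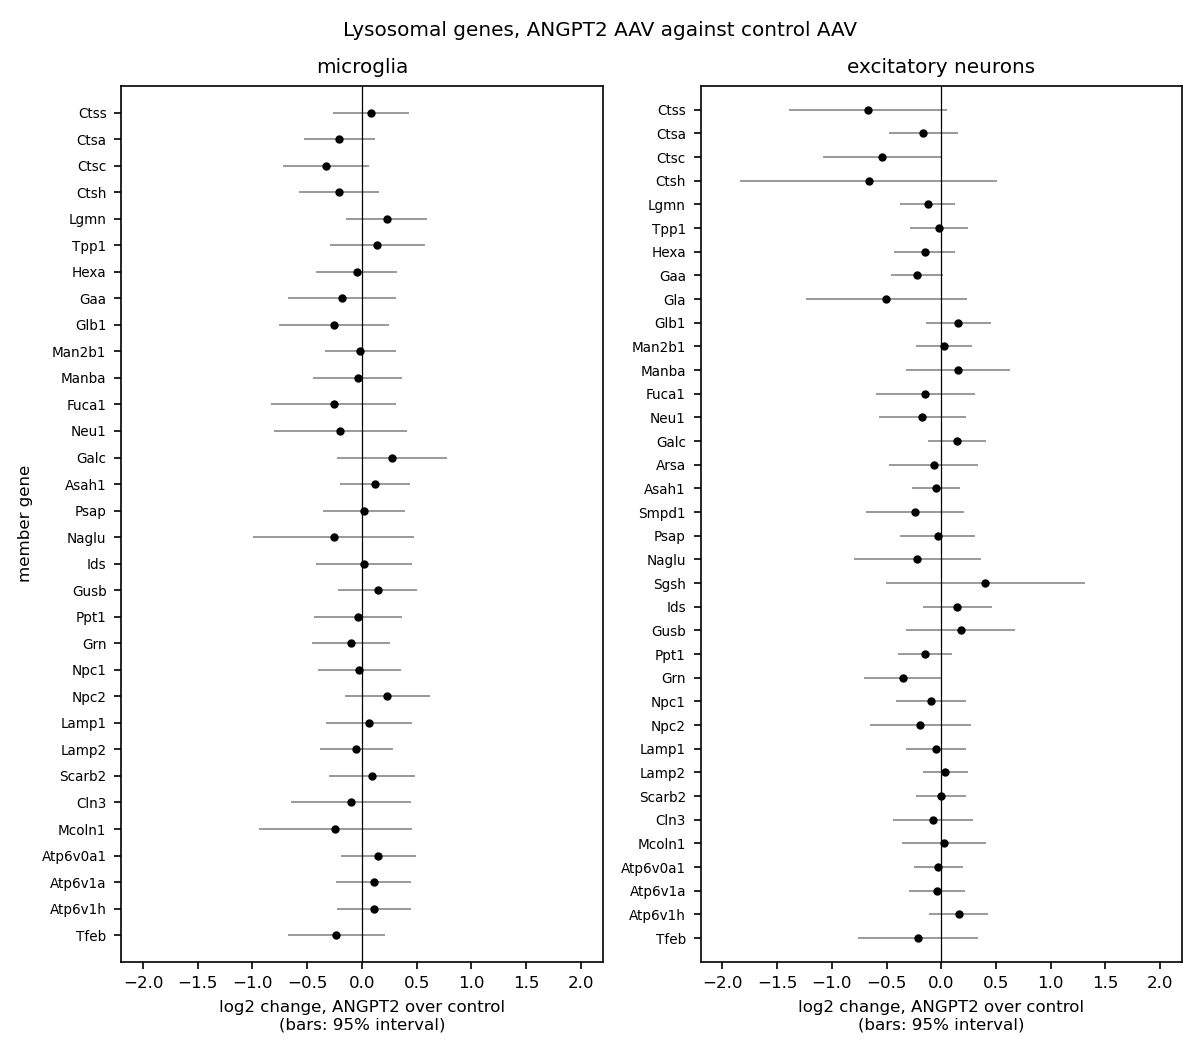
Log2 difference of each lysosomal gene tested, ANGPT2 AAV over control AAV, in microglia (left, 32 genes) and excitatory neurons (right, 36 genes); points are estimates from edgeR's quasi-likelihood test and bars are 95% intervals. All microglial points lie between -0.33 and 0.27, and the widest neuronal bars belong to genes with few UMIs such as Ctsh.

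In whole libraries all 36 members were tested, 11 were above and 25 below 0 (46.2% of all genes were above), and every 95% interval lay within 1 log2 unit. In such sums fewer cells of a type and less RNA per cell cannot be told apart. Ctsc had 3.49, 4.55, 3.58 and 3.43 CPM in ANGPT2 libraries, against 5.21, 6.65 and 4.37 CPM in control libraries, so the groups overlapped by 1 library. Its log2 difference was -0.47 (SE 0.21, adjusted p 0.999 by edgeR's quasi-likelihood test), and -0.22 without the female control library of batch 1. Within batches 1 and 2 the difference was -0.47 and -0.25 on the log2(CPM + 1) scale. Microglia made up 3.44% to 7.70% of the nuclei in ANGPT2 libraries and 4.28% to 5.79% in control libraries, and their part in this value was not tested. Ctsh at -0.30 and Ids, which removes sulfate from heparan and dermatan sulfate, at 0.28 had the next smallest p-values, and of the other lysosomal genes Cd68 stood at -0.49 (SE 0.21) and Arsb at 0.32 (SE 0.17).

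Choroid plexus epithelium held the largest log2 difference of the 14 comparisons. Ctsc had 85.7, 110 and 112 CPM in 3 ANGPT2 libraries (male and female of batch 1 and female of batch 2), against 30.3 and 24.7 CPM in 2 control libraries, both of batch 1. The groups did not overlap, and the log2 difference was 1.84 (SE 0.46, adjusted p 0.291 by edgeR's quasi-likelihood test), with an adjusted p between 0.0903 and 1.00 over 15 alternatives. The value rests on 66 UMIs, and libraries with fewer than 10 choroid nuclei were left out. The 11 microglial markers summed to 37.5 to 174 CPM in this class in ANGPT2 libraries and to 67.3 to 105 CPM in control libraries, 6 of 8 border macrophage markers were at 0, and their part was not tested. Within batch 1 the difference was 1.79 on the log2(CPM + 1) scale, and batch 2 had no control library for it.

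In oligodendrocyte precursors Glb1, the beta-galactosidase of GM1 ganglioside, had 19.1, 27.0, 26.4 and 31.4 CPM in ANGPT2 libraries, against 14.9, 13.8 and 13.5 CPM in control libraries. All 4 ANGPT2 values were above all 3 control values, with a log2 difference of 0.88 (SE 0.35, adjusted p 0.935 by edgeR's quasi-likelihood test) on 83 UMIs. Within batches 1 and 2 the difference was 0.63 and 1.04 on the log2(CPM + 1) scale. Tmppe overlaps Glb1 on the same strand, so how reads were divided between them is uncertain. In astrocytes Ctss had 18.4, 15.1, 27.4 and 28.6 CPM in ANGPT2 libraries, against 26.8, 39.9 and 50.5 CPM in control libraries, an overlap of 2 libraries. Its log2 difference was -0.77 (SE 0.30, adjusted p 0.998 by the edgeR test). Within batches 1 and 2 it was -0.93 and -0.83 on the log2(CPM + 1) scale. The 11 microglial markers summed to 68.5 to 86.4 CPM in astrocytes of ANGPT2 libraries and to 82.6 to 124.5 CPM in those of control libraries, 5 of 11 had the lower mean in ANGPT2, none was at 0, and their part was not tested. In ependymal nuclei Atp6v0a1 had a log2 difference of -0.77 (SE 0.38), with all 4 ANGPT2 libraries at 71.5 to 101 CPM below the control libraries at 110 to 195 CPM and an adjusted p of 0.994 by the edgeR test. Within batches 1 and 2 it was -0.78 and -0.57 on the log2(CPM + 1) scale. Of 12 excitatory neuron markers 9 also had the lower mean in ependymal nuclei of ANGPT2 libraries, with sums of 578 to 1366 CPM there and 1027 to 1070 CPM in control libraries, none was at 0, and their part was not tested. Psap and Lamp1 followed at -0.31 (SE 0.24) and -0.44 (SE 0.36).

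In excitatory neurons 10 members were above and 26 below 0, with a median log2 difference of -0.07 against -0.02 over all genes. Grn had a log2 difference of -0.35 (SE 0.16) and Ctsc one of -0.54 (SE 0.24), both with an adjusted p of 0.891 by edgeR's quasi-likelihood test. Ctsc had 1.42, 1.12, 1.36 and 1.10 CPM in ANGPT2 libraries, against 1.90, 1.98 and 1.76 CPM in control libraries, without overlap. All 11 microglial markers also had the lower mean in ANGPT2 excitatory neurons, summing to 19.0 to 23.6 CPM there and to 21.8 to 35.9 CPM in control neurons, and their part was not tested. In oligodendrocytes Hexa had a log2 difference of -0.36 (SE 0.17) and Ctss one of -0.52 (SE 0.28). There 10 of 11 microglial markers had the lower mean in ANGPT2 libraries, with sums of 85.3 to 105 CPM in ANGPT2 libraries and 101 to 174 CPM in control libraries, and their part was not tested. In inhibitory neurons 0 members were called, the smallest p belonging to Grn at -0.46 (SE 0.23). There 8 of 11 microglial markers had the lower mean in ANGPT2 libraries, with sums of 19.6 to 37.0 CPM in ANGPT2 libraries and 27.3 to 40.1 CPM in control libraries, none was at 0, and their part was not tested. In striatal projection neurons the smallest p belonged to Ppt1, at -0.35 (SE 0.22), and Manba stood at 0.71 (SE 0.46).

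The sparse classes gave little precision. Only 3 members could be tested in mural nuclei, 6 in fibroblasts and 8 each in endothelial and ependymal nuclei. In choroid plexus epithelium 10 could be tested and in committed oligodendrocyte precursors 11. Median standard errors in these classes were 0.36 to 0.39 log2 units, so differences of that size or well above it were not detectable. Even the largest log2 difference in choroid plexus epithelium, 1.84, was not called. The smallest p belonged to Lamp2 in endothelial nuclei, at -0.67 (SE 0.42), to Atp6v1h in fibroblasts, at 0.61 (SE 0.36), to Psap in committed oligodendrocyte precursors, at 0.47 (SE 0.36), and to Psap in mural nuclei, at -0.23 (SE 0.32). The difference of the ANGPT2 change between females and males was tested in whole libraries and 5 classes, and 0 members were called. The share of all genes called was 0.005% in whole libraries, 0.0224% in excitatory neurons, 0.00788% in inhibitory neurons and 0% in microglia, astrocytes and oligodendrocytes. The smallest unadjusted p belonged to Mcoln1, a lysosomal calcium channel, in oligodendrocytes, with an interaction of 1.24 (SE 0.40, adjusted p 1.00 by edgeR's quasi-likelihood test). Galc in microglia had one of -1.12 (SE 0.43, adjusted p 1.00 by edgeR's quasi-likelihood test), with 1 control female behind it.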

How the data were processed

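Nuclei of 7 mice were profiled by droplet single-nucleus RNA sequencing. The deposited values are unnormalized UMI counts for every gene in every nucleus, which the authors made with Cell Ranger 6.1.2 on mm10, per the submitters' processing notes. Whether intronic reads were counted is not given in the sources used here.

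Nuclei with at least 300 genes and at most 5% mitochondrial UMIs were kept. Doublets were called per library against simulated doublets, and 3939 were removed. Nuclei were clustered with scanpy 1.11.5 and the Leiden method of igraph 0.11.9 (2500 variable genes without the lysosomal genes, 40 components, 15 neighbours, resolution 1). Clusters were named from marker genes. Counts were summed per library and class where at least 10 nuclei were present. The sums were tested with edgeR 4.0.16 (TMM, filterByExpr with a minimum count of 10 and total of 15, glmQLFit and glmQLFTest) with Benjamini-Hochberg adjustment over all genes and a threshold of 0.05. The scripts were tested on simulated data. CPM values divide each sum by its own total and multiply by 1000000.

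Each mouse is 1 replicate. The labels' batch tag pairs libraries across treatments. Deviations of same-batch libraries correlated at -0.04 to 0.63 in whole libraries and -0.04 to 0.14 in microglia. Libraries of different batches correlated at -0.48 to 0.20 in whole libraries and -0.15 to 0.14 in microglia. The reported fits of ANGPT2 against control AAV held a treatment term only, without batch or sex. The alternatives were DESeq2 1.42.0, RLE size factors, no low-count filter, batch and sex terms, UMIs per nucleus, doublets kept, resolution 2, no library block and leaving out each library.

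The members and lists were chosen with earlier results of these data known. The rule for naming genes took the 5 members with the smallest p in microglia, the 3 in every other comparison of ANGPT2 with control AAV, and the 5 highest and 3 lowest called members of each class, and the text gives values for only part of them. Of the other lysosomal genes, those past the threshold or the 2 with the smallest p in microglia and whole libraries are named. Other members are given as levels or counts, and exceptions were chosen after their values were seen.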

Additional observations from a re-analysis of the deposited data

Results flagged for a closer look

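In 41 groups of 4 or more libraries, the highest or lowest library was checked for a gap to its neighbour that is large against the whole range of the group, and 6 groups had such a gap at Dixon's 95% limit, a limit that chance alone passes in some groups. All 6 were ANGPT2 groups, since the control groups hold 3 libraries and were not tested. Ctsc in whole libraries was 4.55 CPM in the female of batch 1, above 3.43 to 3.58 CPM in the other ANGPT2 libraries. Psap in fibroblasts was 315 CPM in the female of batch 1, above 101 to 119 CPM in the others. Atp6v0a1 in endothelial nuclei was 179 CPM in the male of batch 2, below 227 to 235 CPM in the others. Ctsa was 143 CPM in microglia of the female of batch 2, below 180 to 183 CPM in the others, and 13.3 CPM in inhibitory neurons of the same mouse, below 20.8 to 22.0 CPM. Ctss in oligodendrocyte precursors of that mouse was 29.0 CPM, above 13.6 to 15.6 CPM in the others.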

How the results depend on the processing

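Of the recomputed counts of members called, 382 stayed within 1.5 times the reported count and 10 did not. Each count adds higher and lower members, so a change of direction does not show in it, and 0 against 0 counts as unchanged. Per nucleus, oligodendrocytes had 2 members higher and 27 lower, against 19 and 5 as reported. Excitatory neurons had 26 and 3, against 10 and 20. Without a low-count filter 1 of 36 members was called in inhibitory neurons, lower with ANGPT2 than with control AAV, against 0 as reported. That setting also tests genes with few UMIs, and the share of all genes called in it is not given here, so the call is not set apart from the background. The choroid plexus count without the filter was 5 (2 higher and 3 lower, where 12.1% and 8.76% of all genes were called), against 8. With RLE size factors mural nuclei had 5 and oligodendrocyte precursors 17 members called, against 8 and 10, and with UMIs per nucleus mural nuclei had 23. Leaving out 1 library gave 10 to 17 in astrocytes (16 as reported), 5 to 8 in fibroblasts and 5 to 10 in oligodendrocyte precursors, and 29 to 30 in microglia. The share of all genes called with RLE size factors or a library left out is not given here, so these counts cannot be read as particular to the members. With the replicate block 0 members were called between ANGPT2 and control AAV in every comparison, so the block changed no call. Of the recomputed values of single genes, 1823 kept direction and side of the threshold, 95 kept direction only and 15 turned round. Per nucleus, Npc2 in inhibitory neurons became 0.085, Ids and Lamp1 in mural nuclei -0.18 and -0.34, and Lgmn, Lamp1 and Cln3 in oligodendrocytes -0.13, -0.20 and -0.18. Between ANGPT2 and control AAV in mural nuclei, Lamp1 (-0.09) became 0.046 with a sex term and 0.0098 at resolution 2, and ran from -0.53 to 0.32 with a library left out. Atp6v0a1 there (0.02) became -0.038 with a sex term and -0.037 with the replicate block and sex, and ran from -0.088 to 0.11 with a library left out. Ctss in oligodendrocyte precursors (-0.72) became 0.24 without the female control library of batch 1, the highest of a range from -1.25 over left-out libraries, and the 11 microglial markers there summed to 66.9 to 76.4 CPM in ANGPT2 and 67.4 to 410 CPM in control libraries. The cause of these shifts was not tested. Sparse classes, with 12 to 125 nuclei per library in endothelial nuclei and committed oligodendrocyte precursors, limit what could be detected.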
